A study of Mus musculus with 12 samples.

Results

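Small leucine-rich proteoglycans are a family of secreted matrix proteins, and 9 of their genes (Lum, Dcn, Bgn, Fmod, Ogn, Omd, Prelp, Aspn and Podn) were followed here through chronic pancreatitis in mouse pancreas. They are 9 of the 18194 genes that the array annotation names. The 20 probe sets assigned to exactly 1 of these symbols were taken, and each gene was represented by the probe set with the highest mean over the 12 arrays. RNA of whole pancreas was measured on Affymetrix arrays, with 1 array per mouse and 3 mice in each of 4 groups. The groups were C57BL6/J mice given cerulein, C57BL6/NHsd mice given cerulein, C57BL6/J mice given saline and C57BL6/NHsd mice given saline. All mice were 8 weeks old, and C57BL6/J (J below) came from Jackson while C57BL6/NHsd (NHsd below) came from Harlan. Cerulein is a peptide that overstimulates the acinar cells, which make the digestive enzymes, and its repeated injection is a standard way to induce pancreatitis in mice. The labels give the saline mice as female and state no sex for the cerulein mice (Xist, the RNA of the inactive X chromosome, read 9.76 to 11.5 on cerulein and 9.52 to 10.3 on saline arrays, and no probe set of the Y-linked genes Eif2s3y, Uty and Kdm5d exceeded 3.37).

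Each member of the family carries a stack of leucine-rich repeats in its core protein, and most carry chondroitin, dermatan or keratan sulfate chains. As background, the core proteins bind collagen fibrils and regulate how thick and how evenly spaced the fibrils become, and several members also bind TGF-beta or act on cell surface receptors. In the pancreas, collagen and its partners are made mainly by stellate cells, which become activated and deposit matrix during chronic pancreatitis. By sequence the members fall into class I (Dcn, Bgn, Aspn), class II (Lum, Fmod, Prelp, Omd), class III (Ogn) and class V (Podn).

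Of the 9 members, 7 passed the filter on low signal, which asked for more than log2 4 on at least 3 arrays, and these 7 were tested among 8505 genes. After cerulein 6 of the 7 were called higher as the mean of both substrains, at an adjusted p under 0.05, and 0 lower. Aspn is among the 6, and it exceeded log2 4 on 4 cerulein arrays and 0 saline arrays. It thus passed the filter only through the arrays where it was high, so its calls and its place in the median below are no support for a rise of the family. Among all genes tested 59.4% were called higher and 10.1% lower, so a call by itself does not set the family apart. With groups that lie wholly under log2 4 set to log2 4, the median change of the 7 tested members was 1.64 on the log2 scale, against 0.42 for all genes tested; this describes the members with signal, since Omd and Podn have no measured change. On the probe sets used, fitted changes of Lum, Ogn and Bgn were larger than those of Dcn and Prelp, with no test between members. The rise of Aspn is known only as a bound, and the change of Fmod did not pass the test. In J mice 5 members were called higher (background 47.8%), and in NHsd mice 6 (background 48.7%). Both counts include Aspn, which in NHsd was at an adjusted p of 0.0498. Over the alternative settings and left-out arrays each of these counts ran from 4 to 6. The cerulein and saline arrays did not overlap for 5 members over both substrains (background 40.0%), for 5 in J (52.2%) and for 6 in NHsd (57.3%). Each of these counts includes Aspn. Over both substrains and in NHsd its separation rests on 3.27 on NHsd cerulein replicate 1 against 3.21 on NHsd saline replicate 1. Both lie under log2 4, where signals have no reliable order.

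**Figure D1:**
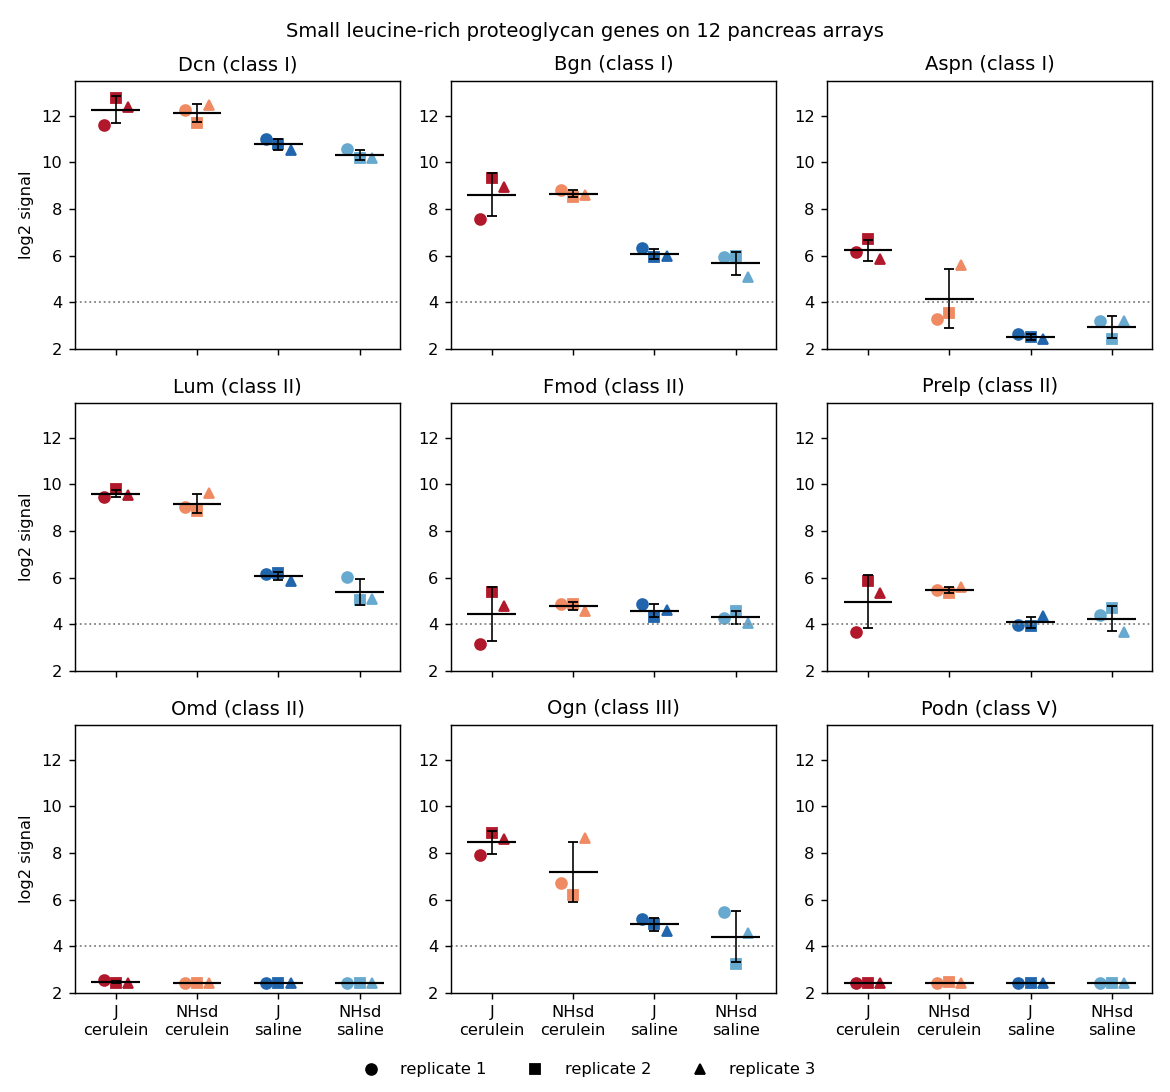
Each panel plots the deposited log2 signal of 1 member on the vertical axis for the 4 groups; points are single arrays with the replicate number as symbol, the horizontal bar is the mean and the error bar the SD of 3 arrays. The dotted line is log2 4, and signals of different genes are not comparable with each other. Lum, Dcn and Bgn sit higher on every cerulein array than on any saline array, while Omd and Podn stay below the dotted line on all 12 arrays.

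The median of the probe sets that passed the filter was 5.92 ± 0.09 on cerulein arrays and 5.34 ± 0.07 on saline arrays (SD, n = 6 each). The 9 hybridization control probe sets averaged 6.56 ± 0.14 on cerulein arrays and 8.36 ± 0.41 on saline arrays (SD, n = 6 each) and the 12 poly-A controls 7.11 ± 0.58 and 9.83 ± 0.44, both opposite in direction to the median. The 3′ minus 5′ signal of Gapdh was 0.83 ± 0.13 on cerulein arrays and 1.22 ± 0.20 on saline arrays, and that of beta-actin 1.67 ± 0.12 and 1.97 ± 0.26. On J cerulein replicate 1 the poly-A controls averaged 8.28, against 6.75 and 6.80 on its group's other arrays, and no NHsd cerulein array was as high. The part of these measures in the results was not tested. With arrays set to equal medians, 26.7% of genes were called higher and 36.0% lower, and after quantile normalization 30.6% higher and 32.9% lower. Within its own group, J cerulein replicate 1 correlated with the other arrays at a mean of 0.956, against 0.972 to 0.986 for the other 11 arrays. Whole tissue was measured, so more cells of a type and more RNA per cell cannot be told apart.

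Decorin, a class I proteoglycan that binds collagen and TGF-beta, was measured by probe set 1449368_at. Dcn read 11.62, 12.77 and 12.39 on the J cerulein arrays and 12.24, 11.68 and 12.46 on the NHsd cerulein arrays, against 11.00, 10.79 and 10.54 on the J saline arrays and 10.59, 10.17 and 10.20 on the NHsd saline arrays (log2 signal). All 6 cerulein arrays lay above all 6 saline arrays. The mean change was 1.64 (SE 0.19, 95% interval 1.23 to 2.06, adjusted p = 1.03e-05), a 3.13-fold rise. Its size was 1.48 in J and 1.81 in NHsd (SE 0.27 each), and the difference of the changes, -0.32 (SE 0.38, adjusted p = 0.82), did not pass the test. The second Dcn probe set, 1441506_at, stayed between 2.75 and 4.34, exceeded log2 4 on 1 array and was not called (adjusted p = 0.183).

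Biglycan is the closest relative of decorin, and it also signals to macrophages through Toll-like receptors when released from the matrix. Bgn (1416405_at) read 7.59, 9.35 and 8.93 on the J cerulein arrays and 8.82, 8.54 and 8.61 on the NHsd cerulein arrays, against 6.33, 5.94 and 5.97 on the J saline arrays and 5.92, 5.99 and 5.08 on the NHsd saline arrays. The groups did not overlap, although J cerulein replicate 1 stood more than 1 log2 unit under its own group's other arrays. The mean change was 2.77 (SE 0.26, 95% interval 2.20 to 3.34, adjusted p = 2e-06), or 6.81-fold. The change was 2.54 in J and 2.99 in NHsd (SE 0.37 each), and their difference of -0.45 (SE 0.53, adjusted p = 0.82) was not called. Its other 2 probe sets gave 3.36 (SE 0.25) and 2.01 (SE 0.29), both called, so the direction was shared by all 3 probe sets and the size was not.

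Lumican is a class II keratan sulfate proteoglycan that spaces collagen fibrils, first known from the cornea. Lum (1423607_at) read 9.48, 9.80 and 9.56 on the J cerulein arrays and 9.04, 8.87 and 9.63 on the NHsd cerulein arrays, against 6.15, 6.19 and 5.87 on the J saline arrays and 6.02, 5.04 and 5.07 on the NHsd saline arrays. The lowest cerulein array was thus more than 2 log2 units above the highest saline array. The mean change of 3.67 (SE 0.19, 95% interval 3.27 to 4.08, adjusted p = 1.61e-08), or 12.7-fold, was the largest measured among the members. The order of group means ran 9.61 ± 0.17 in J cerulein, 9.18 ± 0.40 in NHsd cerulein, 6.07 ± 0.18 in J saline and 5.38 ± 0.56 in NHsd saline (SD, n = 3 each). Neighbours of one treatment in that order were not called different: J minus NHsd was 0.43 (SE 0.26, adjusted p = 0.611) after cerulein and 0.69 (SE 0.26, unadjusted p = 0.0222, adjusted p = 0.682) after saline. The change was 3.55 in J and 3.80 in NHsd (SE 0.26 each), with a difference of -0.25 (95% interval -1.06 to 0.55).

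Osteoglycin, also called mimecan, is the class III member, and asporin is the class I member that inhibits TGF-beta and carries no glycosaminoglycan chain. Ogn (1419663_at) read 7.90, 8.87 and 8.61 on the J cerulein arrays and 6.69, 6.21 and 8.63 on the NHsd cerulein arrays, against 5.18, 4.95 and 4.66 on the J saline arrays and 5.45, 3.24 and 4.54 on the NHsd saline arrays. All cerulein arrays were higher than all saline arrays, and NHsd cerulein replicate 3 was at the level of the J cerulein arrays while its 2 group partners were not. The mean change was 3.15 (SE 0.42, 95% interval 2.23 to 4.06, adjusted p = 3.3e-05), or 8.85-fold, with 3.53 in J and 2.76 in NHsd (SE 0.60 each). Its second probe set, 1419662_at, read 4.71, 5.47 and 5.15 on the J cerulein arrays and 3.66, 2.83 and 5.06 on the NHsd cerulein arrays, against 2.39 to 2.83 on all saline arrays. That is at least 2.16-fold higher in J against log2 4, and no fold is given in NHsd, whose cerulein mean was under log2 4.

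Aspn (1448421_s_at) read 6.15, 6.72 and 5.84 on the J cerulein arrays and 3.27, 3.55 and 5.59 on the NHsd cerulein arrays, against 2.64, 2.49 and 2.40 on the J saline arrays and 3.21, 2.40 and 3.18 on the NHsd saline arrays. All saline arrays lay under log2 4, so the rise is given as a bound against that level: at least 4.70-fold in J (adjusted p = 5.64e-05) and at least 1.10-fold in NHsd (adjusted p = 0.0498). The NHsd bound is itself inexact, since NHsd cerulein replicates 1 and 2 also read under log2 4. The fitted changes, whose size depends on saline values under log2 4, were 3.72 in J and 1.21 in NHsd (SE 0.48 each). In NHsd the call rested on replicate 3: without it both NHsd groups lie wholly under log2 4 and the adjusted p was 0.197. The second Aspn probe set, 1416652_at, gave 3.91, 4.68 and 3.91 on the J cerulein arrays and 2.57, 2.89 and 4.04 on the NHsd cerulein arrays, against 2.47 to 2.50 on all saline arrays, which is at least 1.12-fold higher in J. That bound is inexact as well, since J cerulein replicates 1 and 3 read under log2 4.

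Aspn was also the member with the widest gap between substrains. The J cerulein arrays were all above the NHsd cerulein arrays, by 2.10 on average (SE 0.48, 95% interval 1.05 to 3.15, unadjusted p = 0.000904, adjusted p = 0.157), and such a separation with J higher was seen for 7.94% of all genes. The difference of the cerulein effect was 2.51 (SE 0.68, unadjusted p = 0.00302, adjusted p = 0.702). Neither passed the adjustment over 8505 genes. Without NHsd cerulein replicate 3 both did, at 2.82 (adjusted p = 0.00222) after cerulein and 3.24 (adjusted p = 0.0131) for the difference of effects, so this 1 array decides the call. The sizes of these differences are inexact, since NHsd cerulein replicates 1 and 2 and all saline arrays lie under log2 4. For Ogn, J minus NHsd after cerulein was 1.28 (SE 0.60, adjusted p = 0.541), and 2.01 (adjusted p = 0.0973) without that array.

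In all 3 comparisons of the substrains 0 members were called by limma. The background was 0.0118% for the difference of the cerulein effect, 0.223% for J against NHsd after cerulein and 0.0588% after saline. At an unadjusted p under 0.05 each of them held 1 member, which was Aspn for the first and second and Lum for the third. The 95% intervals of the difference of effects were wide, as from -1.07 to 2.60 for Ogn and from -1.92 to 0.66 for Fmod.

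**Figure D2:**
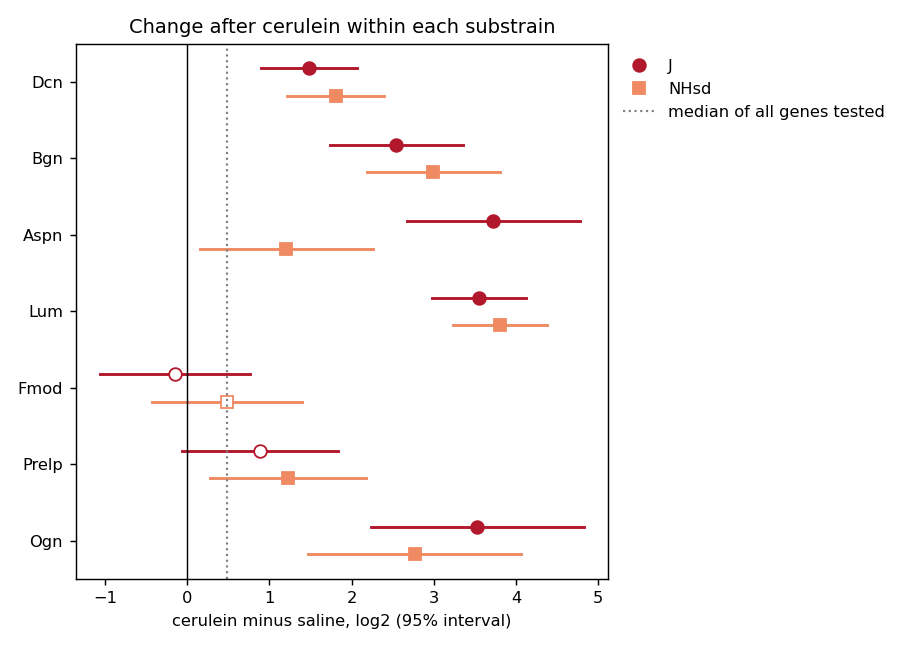
The horizontal axis is the log2 difference of cerulein minus saline within J (circles) and within NHsd (squares), with its 95% interval, for the 7 members tested; open symbols did not pass the test. The dotted line is the median of all genes tested, 0.49 on the log2 scale. Aspn is the member whose 2 intervals lie apart, with fitted changes of 3.72 in J and 1.21 in NHsd against saline arrays that all lie under log2 4.

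Prelp, which anchors collagen to basement membranes, was measured by 1416321_s_at. It read 3.68, 5.87 and 5.34 on the J cerulein arrays and 5.45, 5.35 and 5.59 on the NHsd cerulein arrays, against 3.98, 3.92 and 4.33 on the J saline arrays and 4.38, 4.68 and 3.65 on the NHsd saline arrays. J cerulein replicate 1 read under log2 4, where signals have no reliable order, and the other 5 cerulein arrays were above all saline arrays. The mean change of 1.06 (SE 0.31, adjusted p = 0.00872) was called, as was the 1.23 in NHsd (SE 0.44, adjusted p = 0.0309), while the 0.89 in J (SE 0.44, adjusted p = 0.102) was not. Without J cerulein replicate 1 the change in J was 1.53 (adjusted p = 0.000818). With equal medians the mean change was 0.48 (adjusted p = 0.169) and after quantile normalization 0.57 (adjusted p = 0.0923), so the call is lost under both scalings. The second Prelp probe set read 2.44 on all 12 arrays.

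Fibromodulin, a keratan sulfate proteoglycan that binds collagen at the same site as lumican, is the tested member without a call. Fmod (1456084_x_at) read 3.15, 5.37 and 4.77 on the J cerulein arrays and 4.86, 4.88 and 4.58 on the NHsd cerulein arrays, against 4.85, 4.29 and 4.60 on the J saline arrays and 4.27, 4.58 and 4.03 on the NHsd saline arrays. The groups overlapped, and the mean change was 0.16 (SE 0.30, 95% interval -0.48 to 0.81, adjusted p = 0.637). Without J cerulein replicate 1 it was 0.48 (adjusted p = 0.0165), a value close to the median of all genes, and with equal medians it was -0.42 (adjusted p = 0.209). The other 5 Fmod probe sets never exceeded 2.74. The array maker's suffix _x_at marks probe sets whose probes can also bind other sequences, and _s_at marks those shared by several transcripts.

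Osteomodulin (osteoadherin), a keratan sulfate proteoglycan known from bone, and podocan, the class V member, were not detected above log2 4 on any array. Omd (1418745_at) read 2.41 to 2.53 on J cerulein arrays and 2.40 to 2.43 on NHsd cerulein arrays, against 2.40 on all saline arrays. Podn (1435180_at) stayed between 2.41 and 2.44. These values are at the lower end of the table, whose lowest value is 2.39, and no change was tested for either gene.

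**Figure D3:**
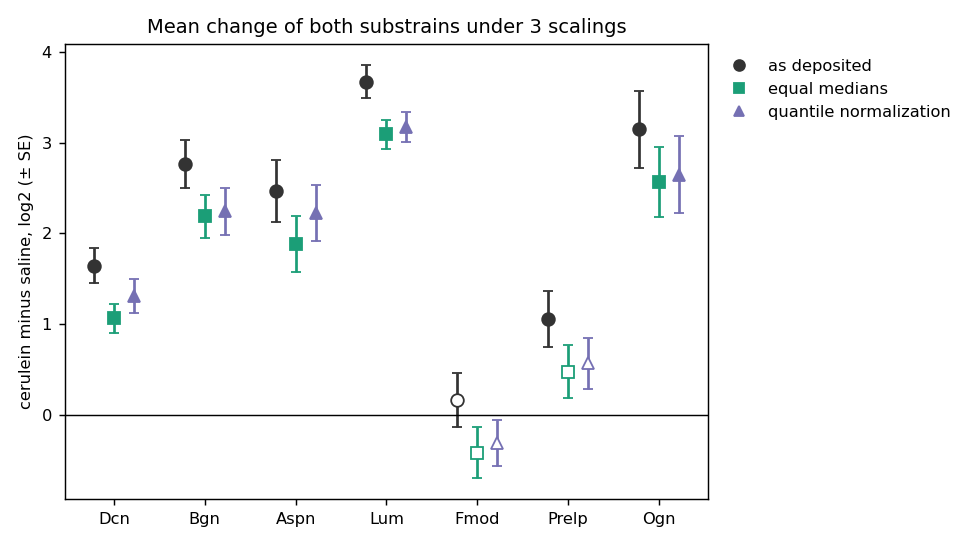
The vertical axis is the mean log2 difference of cerulein minus saline over both substrains, with its SE, for the 7 tested members under 3 scalings: as deposited (circles), arrays shifted to equal medians (squares) and quantile normalization (triangles). Open symbols did not pass the test; Prelp loses its call under both alternatives and Fmod changes sign, while Lum, Ogn, Bgn, Aspn and Dcn remain called with smaller values (the size for Aspn depends on saline arrays under log2 4).

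Under equal medians the changes of the called members were 3.09 for Lum, 2.56 for Ogn, 2.19 for Bgn, 1.88 (fitted) for Aspn and 1.06 for Dcn, each with an adjusted p under 0.05. That scaling adds a constant to each array and put the median of all genes at -0.10. In that scaling 5 members were called higher in J (background 21.1%) and 4 in NHsd (background 20.1%), where Aspn was at 0.61 (adjusted p = 0.269). The J count includes Aspn.

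Of the 9 members, 7 lie next to another member in the genome. In the RefSeq gene table for GRCm38.p6, Aspn, Omd and Ogn follow each other on chromosome 13 next to Ecm2, Dcn and Lum follow each other on chromosome 10 before Kera and Epyc, and Prelp and Fmod are neighbours on chromosome 1 beside Optc. Bgn, on chromosome X, and Podn, on chromosome 4, have no member beside them. On chromosome 13 the outer genes, Aspn and Ogn, rose after cerulein, and Omd between them read at most 2.53 and Ecm2 at most 3.12, with no test. On chromosome 10, Dcn and Lum rose, and Kera and Epyc read at most 2.46. On chromosome 1, Prelp was called and Fmod was not, and the difference between them was not tested. Epyc, Kera, Optc, Chad, Chadl, Nyx and Ecm2, the 7 of 9 other small leucine-rich repeat genes with a probe set, gave 0 genes that passed the filter.

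The promoter windows of the 3 chromosome 13 members are shown because signal of Aspn and Ogn was detected after cerulein and none of Omd on any array, and that of Bgn because it rose and has a GC-rich start. The windows run from 250 bases before to 50 bases after the RefSeq start in GRCm38.p6, all on the plus strand: chr13:49544193-49544492 for Aspn, chr13:49582212-49582511 for Omd, chr13:49607765-49608064 for Ogn and chrX:73483351-73483650 for Bgn. Capitals mark matches, on either strand, to the TATA box TATAAA, to the GC box GGGCGG, to the CCAAT box, to the AP-1 motif TGANTCA or to the TEAD motif GGAATG, all chosen after the sequences had been seen.
Aspn: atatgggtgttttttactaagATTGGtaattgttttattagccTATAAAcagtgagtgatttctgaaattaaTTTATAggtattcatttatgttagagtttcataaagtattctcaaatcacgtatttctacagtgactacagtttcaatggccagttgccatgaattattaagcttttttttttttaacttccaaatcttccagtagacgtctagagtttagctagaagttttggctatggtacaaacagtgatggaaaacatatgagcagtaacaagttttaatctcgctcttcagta
Omd: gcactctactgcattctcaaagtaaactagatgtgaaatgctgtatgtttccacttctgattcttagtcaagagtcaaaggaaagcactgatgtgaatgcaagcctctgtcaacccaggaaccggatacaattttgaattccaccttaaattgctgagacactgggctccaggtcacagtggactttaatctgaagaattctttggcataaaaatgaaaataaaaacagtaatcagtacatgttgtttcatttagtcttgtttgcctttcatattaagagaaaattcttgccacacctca
Ogn: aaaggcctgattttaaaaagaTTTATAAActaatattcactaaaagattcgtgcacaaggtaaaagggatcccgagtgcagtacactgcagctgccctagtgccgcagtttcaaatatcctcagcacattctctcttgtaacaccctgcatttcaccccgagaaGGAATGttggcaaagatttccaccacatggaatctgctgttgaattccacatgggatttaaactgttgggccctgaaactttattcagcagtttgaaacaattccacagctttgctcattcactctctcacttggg
Bgn: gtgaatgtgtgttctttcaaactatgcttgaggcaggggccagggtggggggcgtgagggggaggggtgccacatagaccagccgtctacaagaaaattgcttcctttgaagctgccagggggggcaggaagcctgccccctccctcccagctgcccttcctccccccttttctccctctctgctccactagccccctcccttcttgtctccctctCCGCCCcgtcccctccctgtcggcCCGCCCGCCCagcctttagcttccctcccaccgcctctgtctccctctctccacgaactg

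The Aspn window held 2 TATAAA matches, 207 and 178 bases before the start, and 1 CCAAT match. The Ogn window held 2 overlapping TATAAA matches, 229 and 227 bases before the start, and 1 GGAATG match 86 bases before it. No searched motif was found in the Omd window, and the Bgn window held 3 GC boxes, of which 2 overlap. Over all 32851 promoter windows of this length, 13.6% held the TATA box, 35.7% the GC box, 37.4% the CCAAT box, 7.81% the AP-1 motif and 14.7% the TEAD motif. The GC content was 31.0% for Aspn, 37.7% for Omd, 42.3% for Ogn and 63.7% for Bgn, against a median of 52.7% over all windows. These matches describe the letters of the windows and were not tied to binding or to the change in signal.

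Within the cerulein groups 2 single arrays stood apart from their group partners for some of the members. J cerulein replicate 1 was below the mean of its group's replicates 2 and 3 by 1.92 for Prelp, with differences of -1.92 for Fmod, -1.55 for Bgn, -0.96 for Dcn and -0.84 for Ogn. For Lum and Aspn the differences were -0.20 and -0.13, and the middle 90% of all genes ran from -1.02 to 0.94. Prelp, Fmod and Bgn lay outside that range, and Dcn and Ogn lay inside it. The 8 tested fibrillar and fibril-surface collagen genes showed a median difference of -1.81 on the same array, with a range of -2.43 to -0.46. The 8 enzymes of the glycosaminoglycan linker and chondroitin chains had a median of 0.08, and the 9 stellate and fibroblast markers one of -0.50. The poly-A controls of this array also stood apart, at 8.28 against 6.75 and 6.80, and their part in these differences was not tested. NHsd cerulein replicate 3 differed from the mean of replicates 1 and 2 by 2.18 for Aspn and 2.18 for Ogn, larger than for 99.9% of all genes. The difference on that array was 0.67 for Lum, 0.49 for Dcn, 0.19 for Prelp, -0.07 for Bgn and -0.29 for Fmod. The middle 90% of all genes ran from -0.28 to 0.65 there, so Lum and Fmod lay just outside it. The collagen list had a median of 0.21. Replicates 1 and 2 of NHsd cerulein lie under log2 4 for Aspn, so that difference is inexact. J cerulein replicate 1 lies under log2 4 for Prelp and Fmod, so their differences on that array are inexact too. These contrasts were set after the values had been seen, each rests on 1 array, and they have no test.

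**Figure D4:**
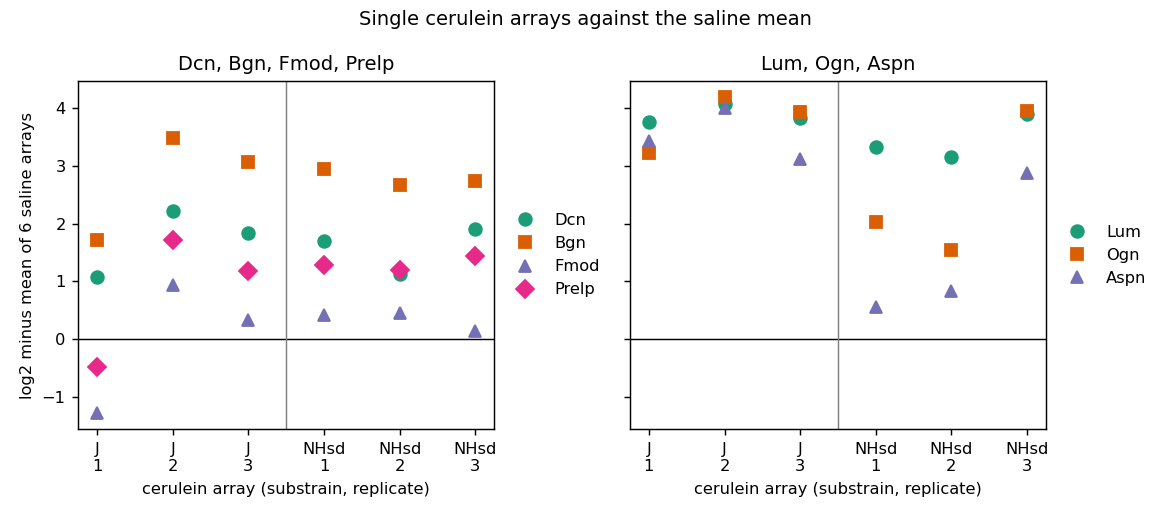
The vertical axis is the log2 signal of a single cerulein array minus the mean of the 6 saline arrays, and the horizontal axis lists the 3 J and then the 3 NHsd cerulein arrays. In the left panel Dcn, Bgn, Fmod and Prelp are lowest on J replicate 1. In the right panel Ogn and Aspn are low on NHsd replicates 1 and 2 and high on replicate 3, while Lum varies less than either gene.

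Profiles were compared by the root mean square distance over the 12 arrays, after each gene was centred on its own mean. Closest among the members were Fmod and Prelp at 0.52, Dcn and Prelp at 0.57, Dcn and Bgn at 0.63 and Lum and Ogn at 0.64, and farthest apart were Lum and Fmod at 1.87. Distances are smaller around genes that change little: the median over all genes was 0.74 from Prelp and 1.66 from Lum. Pairs with different sizes of change are therefore not comparable. Fmod and Prelp both read under log2 4 on J cerulein replicate 1, so their distance is inexact. The 5 genes nearest to Lum were Ctsk (a collagen-degrading cathepsin), Ptn (a secreted heparin-binding growth factor), Stmn1, Apoe and Cks1b, at distances of 0.32 to 0.33, against a median of 1.66 over all genes. Nearest to Prelp, the called member with the smallest change, were Xist, Igfbp5, Pbxip1, Fbln2 and Slc5a1, at 0.25 to 0.29 against a median of 0.74. Aspn was chosen for this after its values had been seen. Its nearest 5 genes were Samd9l (0.32), Hells (0.46), Smc4 (0.49), the proliferation marker Mki67 (0.53) and Tmed5 (0.56), against a median of 1.38. Samd9l changed by 3.29 in J and 1.08 in NHsd. Aspn exceeded log2 4 on only 4 of the 12 arrays, so these distances are inexact.

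The collagens that the family binds were also mostly called higher; for this and the lists that follow, the shares over all genes tested were 59.4% higher and 10.1% lower as deposited, and 26.7% higher and 36.0% lower with equal medians. Of 8 tested genes for fibrillar collagens and collagens of the fibril surface, 8 were called higher and 0 lower over both substrains (6 higher with equal medians), with Col3a1 at 3.14 (SE 0.24), Col1a2 at 3.07 (SE 0.34) and Col5a2 at 2.96 (SE 0.33). Their median was 2.59, against 1.64 for the 7 members and 0.42 for all genes, each with groups wholly under log2 4 set to log2 4. Of 6 beaded filament and basement membrane collagens, 5 were called higher (3 with equal medians), led by the collagen VI chains Col6a2 at 2.47 (SE 0.36), Col6a3 at 2.35 (SE 0.29) and Col6a1 at 2.06 (SE 0.37). In J mice 3 of these 6 were called higher, and 6 of 6 without J cerulein replicate 1. Col1a1 and Col18a1 averaged under log2 4 in saline in both substrains, so their calls are not taken as support for a rise of their lists.

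The enzymes that build the sugar chains had calls in both directions. Chsy1, Dse and Chst15 averaged under log2 4 in both saline groups, and B3galt6 in both cerulein groups. Their calls, although counted below, are not taken as support for a change of their lists. Of 8 enzymes of the linker and the chondroitin chain, 4 were called higher and 2 lower (2 and 4 with equal medians). Chsy1, a chondroitin synthase, was at least 1.62-fold higher in J and at least 1.43-fold higher in NHsd, and Ugdh, which makes the UDP-glucuronate used for the chains, rose by 1.07 (SE 0.11). B3galt6, which adds a galactose of the linker, was at least 1.52-fold lower in J and at least 1.69-fold lower in NHsd (adjusted p = 0.000302 over both). Of 4 dermatan epimerases and chondroitin or dermatan sulfotransferases 3 were called higher and 0 lower (2 and 1 with equal medians), among them Dse, the epimerase that turns chondroitin into dermatan sulfate, at least 3.60-fold in J and at least 2.09-fold in NHsd. Its relative Dsel rose by 1.64 (SE 0.23) in J mice, and in NHsd mice by at least 2.03-fold. The sulfotransferase Chst15 was not called in J (adjusted p = 0.076) and rose by 1.05 in NHsd (SE 0.19), and over both substrains it was not called with equal medians (adjusted p = 0.313). Of 5 keratan enzymes 1 was called higher, B3gnt2 at 0.93 (SE 0.15), and 1 lower, the sulfotransferase Chst2, which fell by 0.42 (SE 0.10); with equal medians the counts were 1 and 3. Tpst1, one of 2 enzymes that sulfate tyrosines as found in Fmod and Omd, rose by 1.50 (SE 0.15), and Tpst2 was at -0.33 (SE 0.16, adjusted p = 0.0752), and with equal medians Tpst2 was called lower at -0.91 (adjusted p = 0.000135).

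Of 10 tested receptors of the family 6 were called higher and 1 lower (4 and 4 with equal medians), close to the shares over all genes and so no result about the receptors. The hyaluronan receptor Cd44 rose by 3.48 (SE 0.22), the Toll-like receptor partner Cd14 was at least 3.33-fold higher in J and at least 2.93-fold higher in NHsd, and the endocytic receptor Lrp1 rose by 1.53 (SE 0.24). Of 5 TGF-beta ligands and receptors 4 were called higher under both scalings, with Tgfbr2 at 2.42 (SE 0.21), Tgfbr1 at 2.29 (SE 0.20) and Tgfbr3 at 1.73 (SE 0.25). Of 6 proteases and cofactors 6 were called higher (4 with equal medians), with the gelatinase Mmp2 at 3.65 (SE 0.31), the procollagen C-proteinase enhancer Pcolce at 2.43 (SE 0.17) and the aggrecanase Adamts5 at 2.38 (SE 0.28) in J mice and at least 4.24-fold in NHsd mice. Of 10 other proteoglycans 7 were called higher and 1 lower (5 and 3 with equal medians), with syndecan Sdc1 at 2.34 (SE 0.13), Sdc2 at least 2.09-fold higher in J and at least 1.89-fold higher in NHsd, and serglycin Srgn at 1.52 (SE 0.18). In both substrains Cd14, Tgfb3, Adamts1, Adamts5, Hspg2 and Sdc2 averaged under log2 4 in saline. Their calls are likewise not taken as support for a rise of their lists.

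**Figure D5:**
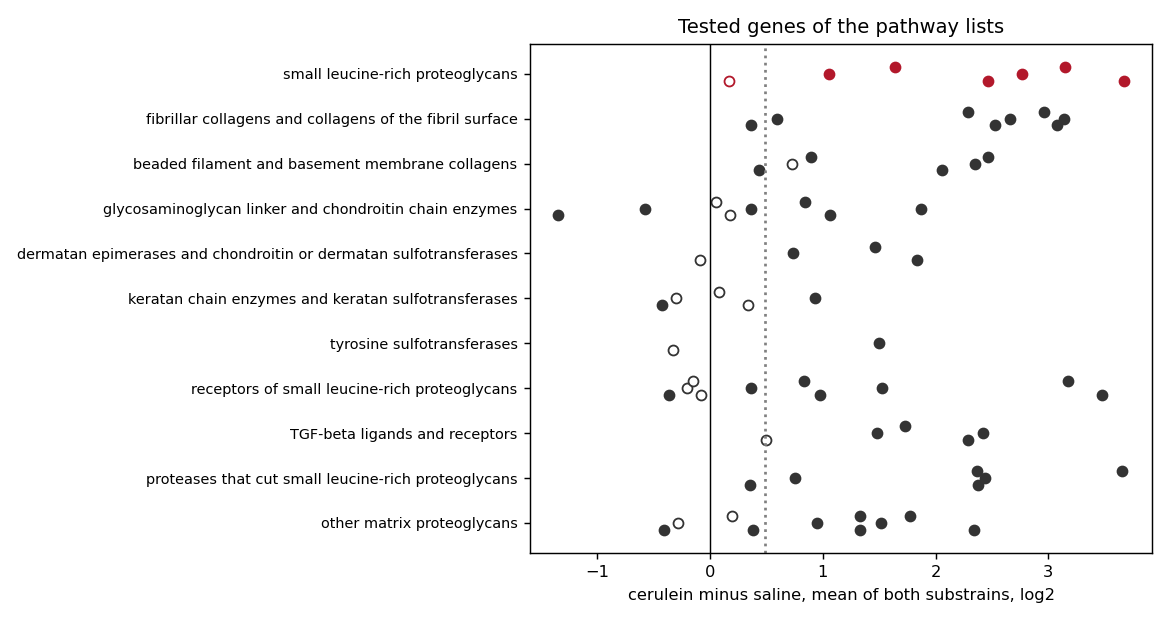
The horizontal axis is the mean log2 difference of cerulein minus saline over both substrains, and each point is 1 tested gene of the list named on the left; filled points passed the test. The dotted line is the median of all genes, 0.49. Where a group lies wholly under log2 4, as for Aspn in saline, the fitted value is plotted and its size is inexact. The family's called members span 1.06 to 3.67 and the fibrillar and fibril-surface collagens 0.36 to 3.14, while the chain enzymes lie on both sides of 0.

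Markers of several cell types were also called between cerulein and saline. The shares over all genes were 59.4% higher and 10.1% lower, and 26.7% and 36.0% with equal medians. Of 9 tested stellate cell and fibroblast markers 8 were called higher over both substrains (7 with equal medians); their mean signal ran from 6.76 to 7.66 on J cerulein and 6.96 to 7.24 on NHsd cerulein arrays, against 4.95 to 5.30 on J saline and 4.74 to 5.10 on NHsd saline arrays. Of 10 macrophage markers 10 were called higher under both scalings, with 8.28 to 8.77 on J cerulein and 8.09 to 8.34 on NHsd cerulein arrays, against 4.65 to 5.18 on J saline and 4.65 to 5.14 on NHsd saline arrays. Of 8 acinar markers 1 was called higher and 5 lower (0 and 7 with equal medians), with means of 12.5 to 12.8 on J cerulein and 12.7 to 13.2 on NHsd cerulein arrays, against 13.0 to 13.1 on all saline arrays, so the tissue carries the acinar signal its label gives. Desmin (Des), Gli1 and Meox1 of the stellate list did not pass the filter. Of 5 duct markers 4 were called higher under both scalings, and of 5 islet markers 5 were (2 with equal medians). Of 4 endothelial markers 2 were called higher and 1 lower (0 and 2 with equal medians), of 2 mesothelial markers 1 higher (0 with equal medians), and of 2 lymphocyte markers 1 higher and 1 lower (0 and 1 with equal medians). Neither of the adipocyte markers tested was called, and 0 Schwann cell markers passed the filter. In both substrains the macrophage markers Cd14, Cd68, Adgre1 and Ms4a7 averaged under log2 4 in saline. So did Postn, Thy1, Vwf, Wt1 and Ms4a1 of the other lists, and Zap70 averaged under it in cerulein. The calls of these markers are not taken as support for a change of their lists, and the list means include such values. The part of the listed cell types in the rise of the members was not tested.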

How the data were processed

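The values are log2 probe set signals that the authors deposited; GCRMA and Partek are named, with no version, in the submitters' processing notes, and other steps and the genome build are not given in the sources used here. Per the labels' protocols, 100 ng of RNA per sample was labelled with biotin, and the labels call the 3 mice of a group biological replicates. Values were used as deposited. Probe sets with 1 gene symbol (34958 of 45101) were kept where they exceeded log2 4 on at least 3 of 12 arrays, and each of 8505 genes was represented by its probe set with the highest mean. A model with 1 mean per group was fitted with limma 3.58.1 in R 4.3.3 (trend on, two-sided, 8 residual degrees of freedom), with Benjamini-Hochberg adjustment over all 8505 genes and a call at an adjusted p under 0.05. The pipeline was tested on simulated data. A group with no array above log2 4 was set to log2 4 and its fold given as a bound within each substrain, with the fit's adjusted p; list medians use the same setting. Array number limits precision.

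The members and lists were chosen with earlier results of these data known. All 9 members are named, with up to 3 called genes of largest change per list and the 5 nearest profiles of Lum and of the called member that changed least; Aspn's nearest profiles and the contrasts of single arrays were added after values were seen. Same-numbered arrays of different groups correlated at -0.16 to 0.33 in their deviations (median 0.02, 3 of 18 pairs above 0.1), so the numbers were not taken to pair mice. Alternatives covered scaling, filter, probe set choice, trend, robust moderation, a replicate block and leaving out each array. Python 3.11.15 served for summaries (pandas 2.3.3, numpy 2.4.6) and for figures (matplotlib 3.10.9), and promoter windows came from RefSeq (GRCm38.p6), which held 7 of the 9 members.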

Additional observations from a re-analysis of the deposited data

How the results depend on the processing

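Over the alternatives of scaling, filter, probe set, moderation and left-out arrays, Lum, Bgn and Ogn kept their call over both substrains. Aspn did too, but its saline arrays all lie under log2 4, so its kept call is no support. On the second Ogn probe set all saline arrays lie under log2 4 as well. Dcn kept its call except on its second probe set (adjusted p = 0.183), which exceeded log2 4 on 1 array. The number of members called for the difference of the cerulein effect was 0 to 1 over the left-out arrays, and likewise 0 to 1 for J against NHsd after cerulein; the 1 is Aspn without NHsd cerulein replicate 3. Aspn in NHsd lost its call in 17 of 21 alternatives (adjusted p 0.0184 to 0.197 over the left-out arrays) and Prelp in NHsd in 9 of 21 (0.93 to 1.45, adjusted p 0.00139 to 0.126). Ogn in NHsd lost it on its second probe set (adjusted p = 0.0804), where that substrain's saline arrays all lie under log2 4. Of all genes, 5049 were called higher and 855 lower as deposited, against 2270 and 3059 with equal medians and 2601 and 2797 after quantile normalization; the cause was not tested. With the replicate block, 6 members were called over both substrains, 5 in NHsd and 5 in J; Aspn in NHsd moved to an adjusted p of 0.0595 and no other member's call changed. A filter at log2 6 leaves 4 members to test, Lum, Dcn, Bgn and Ogn. Signals under log2 4 have no reliable order, which limits Aspn in saline and NHsd mice, and Fmod and Prelp lie close to that level.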
